A study of Mus musculus with 12 samples.

Results

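The genes described here are the receptors, adenylyl cyclases, phosphodiesterase and protein kinase A (PKA) subunits that set and read cyclic AMP in the arrested oocyte. The set held 9 of the 24255 genes in the table, Gpr3, Gpr12, Adcy3, Adcy9, Pde3a, Prkaca, Prkacb, Prkar1a and Prkar2b, and its members were chosen by name for their role and not by their level. Levels were followed over 12 libraries in 4 groups of 3, in FPKM (fragments normalised to transcript length and to library size). Of the 9 genes, 8 passed the filter on low values, which asked for at least 1 FPKM in at least 1 library. Adcy3 did not pass.

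A fully grown oocyte waits in prophase of the first meiotic division with an intact nucleus, the germinal vesicle (GV). The constitutively active receptors GPR3 and GPR12 act through the stimulatory G protein on adenylyl cyclase, cyclic AMP releases the catalytic PKA subunits from the regulatory ones, and active PKA keeps the kinase CDK1 switched off. Cyclic GMP arrives from the granulosa cells through gap junctions and inhibits the phosphodiesterase PDE3A, which would otherwise break cyclic AMP down; when cyclic AMP falls, meiosis resumes.

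The RNA came from GV-stage oocytes of 3-week-old C57BL/6 mice primed with 5 IU of PMSG for 46 h, with 20 oocytes per library amplified by Smart-seq2. The groups differed in Dpagt1, which encodes the enzyme of the first step of N-glycan assembly in the endoplasmic reticulum: WT carried the normal gene, MUT the D166G substitution in the whole animal, GcKO was Dpagt1F/F Gdf9CRE/+ and AmcKO was Dpagt1F/F Amhr2CRE/+. The Gdf9 promoter drives Cre in oocytes and the Amhr2 locus drives it in granulosa cells, so that in AmcKO the Cre does not target the oocyte itself. The labels give WT no floxed allele and no Cre, and they do not say whether the libraries of a group came from separate animals, so p-values measure only the spread between these libraries.

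Beyond the 9 genes, the libraries differed in their FPKM sums between groups, while median-of-ratios factors ran only from 0.969 to 0.987. The FPKM values summed to between 1167362 and 1226005 in WT, 589617 and 611597 in MUT, 482314 and 684212 in GcKO, and 883256 and 1107925 in AmcKO. Genes above 0 numbered 9359 to 9622 in WT and 10399 to 11608 in the other groups. Low FPKM values fell in steps, with 80.8% of 2182 of them within 0.15 of a whole number of fragments against 30% for evenly spread values, and the step was wider in WT, where 1 fragment on 1000 nt was worth 1.67 to 1.94 FPKM against 0.662 to 1.10 in the other groups. The 10 oocyte markers were all detected, and 3 of them (Zp2, Zp3, Ooep) were lower in MUT than in WT and 2 (Zp2, Ooep) in GcKO as deposited. Over all genes tested, 20.8% were called in MUT and 20.2% in GcKO, in either direction. With the libraries scaled to equal FPKM sums, Zp3 in MUT turned to 0.48 and Zp2 in GcKO to 0.29 on the log2(FPKM + 1) scale, Zp2 in MUT was at −0.10, and only Ooep was still called lower in both. Of 19 granulosa and cumulus markers, 6 (Lhcgr, Amh, Amhr2, Foxl2, Tnfaip6, Ptx3) were at 0 in every library. The list summed to between 18.4 and 23.5 FPKM in WT libraries, with 14.8 to 27.2 for MUT, 15.6 to 29.7 for GcKO and 12.2 to 22.7 for AmcKO. Cyp19a1 was the most abundant marker in every library, and in MUT libraries Inha reached 5.44 and Hsd17b1 3.09 FPKM. Dpagt1 itself was listed at 0 in the WT and AmcKO libraries, at 0.878, 0.408 and 0.985 FPKM in MUT and at 0, 0.366 and 0 FPKM in GcKO, so that its level could not check the labels.

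The genes that passed the test were PKA subunits. Prkacb, which encodes the catalytic subunit Cβ, was listed at 0 in every WT library and was present in every library of the other groups, and Prkar1a, which encodes the regulatory subunit RIα, had a mean of 4.57 ± 1.08 FPKM in WT and of 8.46 to 9.12 FPKM in the other groups. Against WT, 3 of the 8 genes tested rose in MUT (Prkaca, Prkacb, Prkar1a), 2 rose in GcKO (Prkacb, Prkar1a) and 0 fell in either. Of all genes tested, 20.8% and 20.2% were called in either direction, and 9.46% and 8.71% were called higher. No set test was run, so with 8 genes these shares are not read as a result about the set. Prkacb reached 1 FPKM only in libraries other than WT and so passed the filter only through groups in which it is high. The receptor and cyclase genes, Pde3a and Prkar2b did not pass the test in any comparison of the values as deposited.

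By mean FPKM over the 12 libraries the order was Prkar2b at 8.71, Prkar1a at 7.70, Prkaca at 3.5, Gpr3 at 3.39, Pde3a at 0.925, Adcy9 at 0.869, Prkacb at 0.750, Gpr12 at 0.435 and Adcy3 at 0. FPKM is per length, so the order compares genes, but the ranges over the 12 libraries overlapped between every pair of neighbours in it. The order also changed by group: Prkar1a had a higher mean than Prkar2b in MUT and GcKO, and Gpr3 a higher mean than Prkaca in WT and AmcKO. The median gene tested had a mean of 3.35 FPKM, and 5 of the 9 genes lay below it. Only Gpr3, Prkaca, Prkar1a and Prkar2b were above 0 in all 12 libraries.

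**Figure D1:**
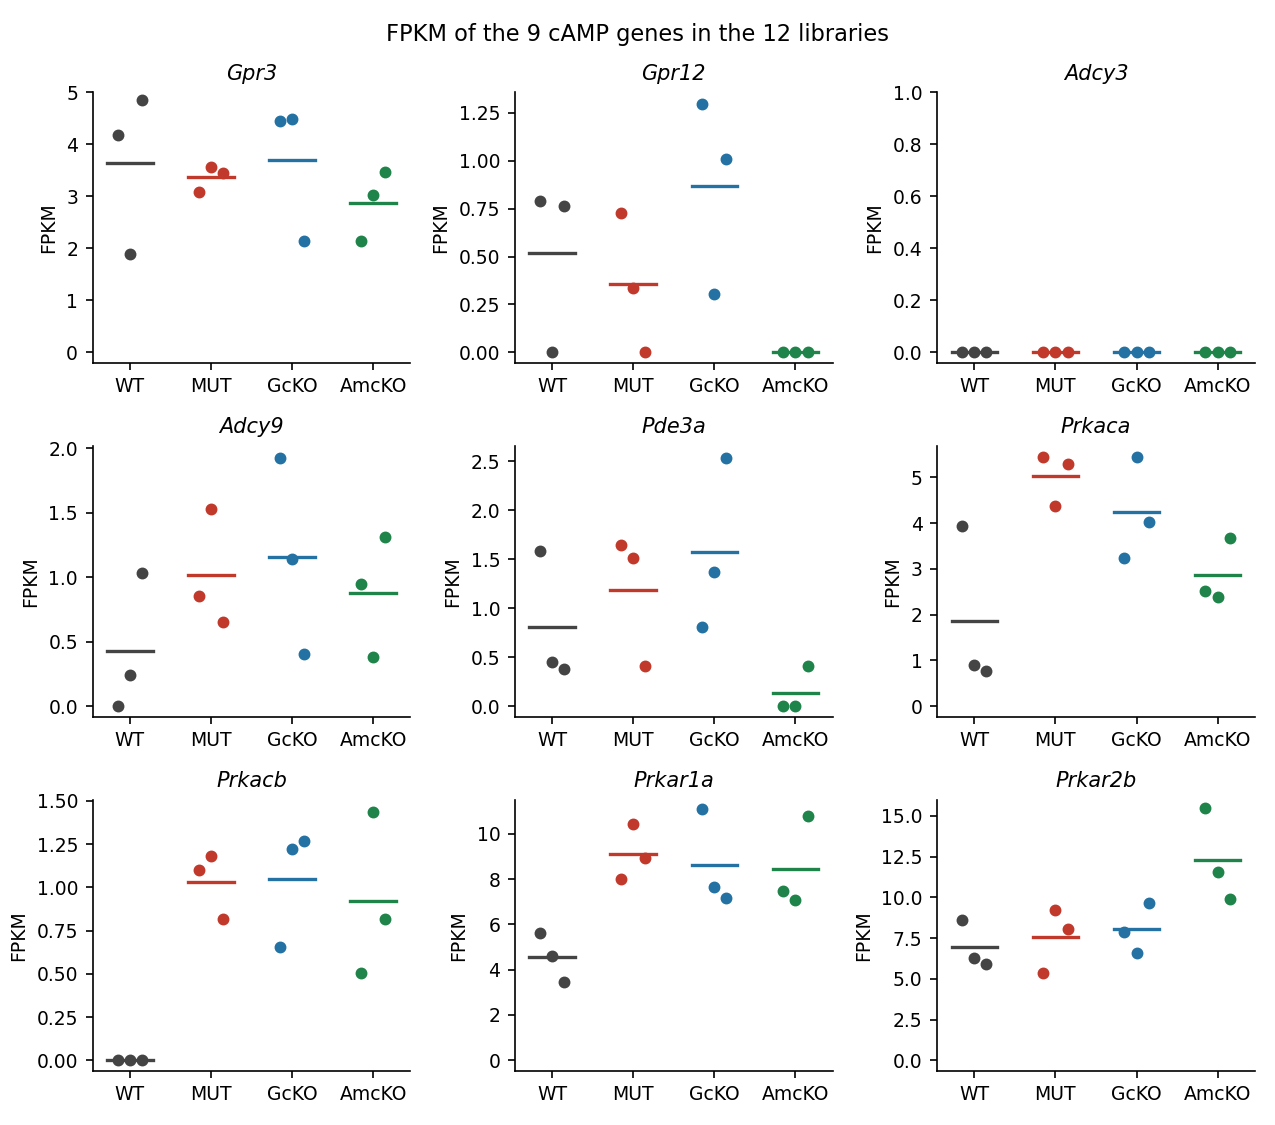
FPKM (vertical axis, from 0, with a different range in each panel) of the 9 cAMP genes in the WT, MUT, GcKO and AmcKO libraries; each point is 1 library and each bar the mean of a group of 3. Prkacb is at 0 in the 3 WT libraries and nowhere else, Gpr12 is at 0 in the 3 AmcKO libraries, and Adcy3 is at 0 in all 12.

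The values of most of these genes rest on few fragments. Estimated from the FPKM steps, Gpr3 had 2 to 17 fragments per library, Prkaca 1 to 19, Adcy9 0 to 14, Pde3a 0 to 10, Prkacb 0 to 8 and Gpr12 0 to 4. Before rounding, the estimates of Gpr3 and Adcy9 often fell between whole numbers, as at 2.45 for Gpr3 and 0.616 for Adcy9 in WT 5. The transcript lengths used may differ from those of the authors' annotation, so the counts of these genes are approximate. Prkar1a and Prkar2b were counted more deeply, with 7 to 50 and 11 to 47 fragments. In the WT libraries Prkar1a rested on only 10, 8 and 7 fragments and Prkaca on 5, 1 and 1, so the WT side is the less precise side of each comparison below. These estimates cover counting error only, since amplified fragments are not independent molecules.

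**Figure D2:**
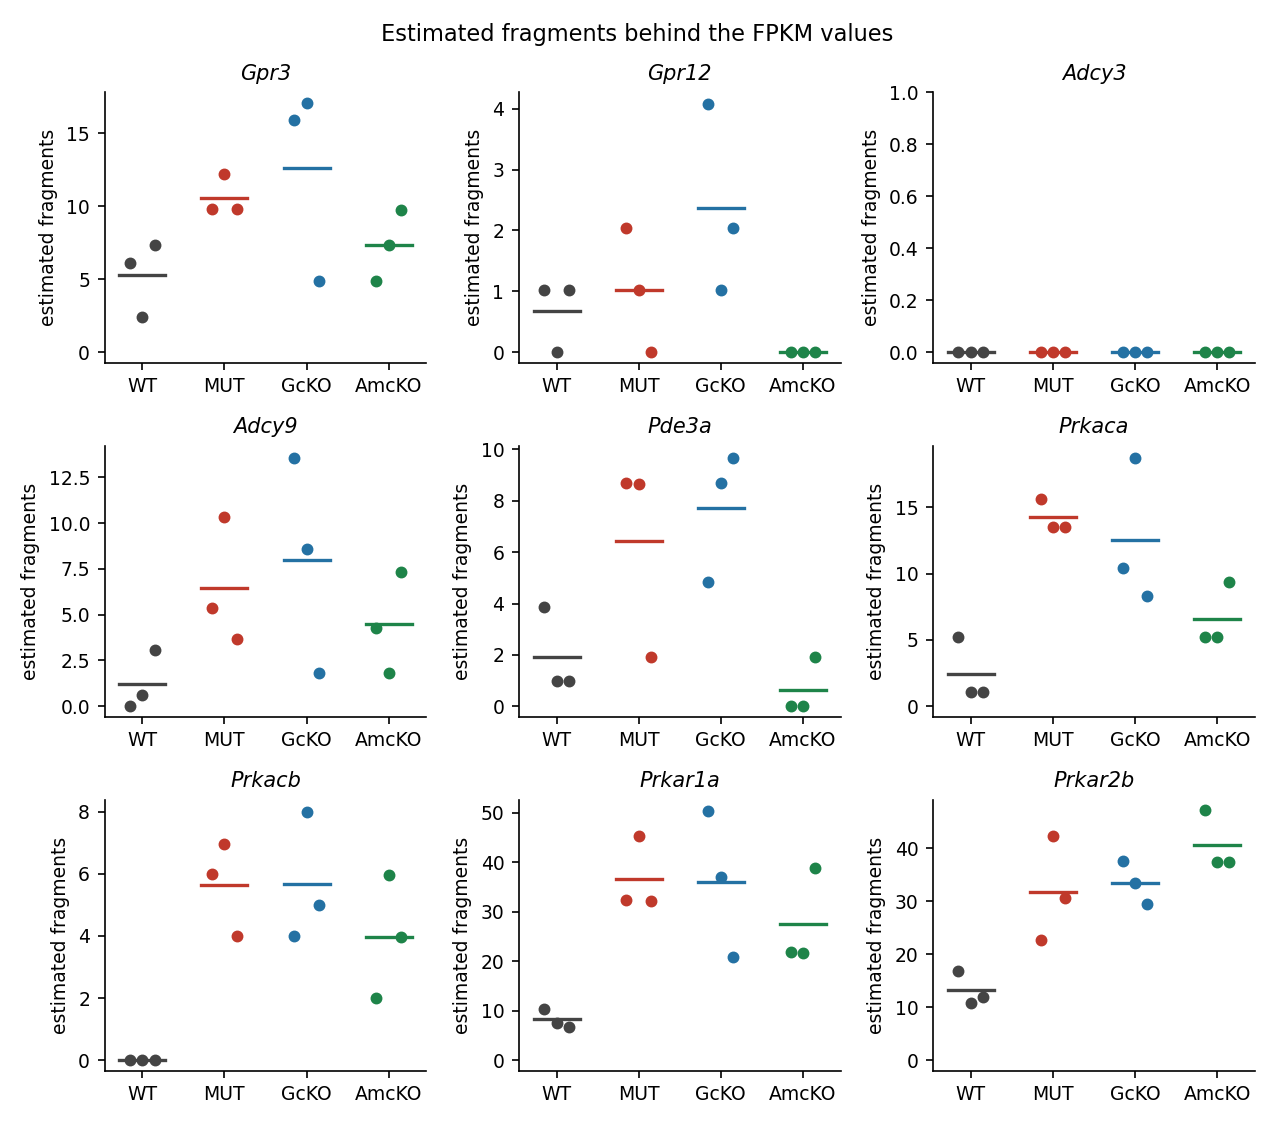
Estimated fragments (vertical axis, from 0) behind the FPKM values of the 9 cAMP genes, by group; each point is 1 library and each bar the mean of a group of 3. Prkar1a and Prkar2b reach 50 and 47 fragments, and Gpr12 does not exceed 4.

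Gpr3 (chr4:133209340-133212536, minus strand, GRCm38) encodes the receptor that keeps the mouse oocyte arrested, and its group means ran from 2.88 to 3.70 FPKM. The FPKM values were 4.18, 1.89 and 4.86 in WT, 3.08, 3.57 and 3.45 in MUT, 4.46, 4.49 and 2.14 in GcKO, and 2.14, 3.03 and 3.46 in AmcKO. The groups overlapped, and the widest spread was within WT. The difference in log2(FPKM + 1) was −0.03 (95% CI −0.75 to 0.70) for MUT against WT, 0.03 (−0.69 to 0.76) for GcKO against WT and −0.21 (−0.93 to 0.51) for AmcKO against WT, with limma adjusted p-values of 0.985, 0.976 and 0.797. The intervals span about 0.7 in each direction, so smaller changes were not detectable at this depth.

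Gpr12 (chr5:146582398-146585239, minus strand) encodes the closest relative of GPR3. Its FPKM values were 0.789, 0 and 0.765 in WT, 0.727, 0.337 and 0 in MUT, 1.29, 0.303 and 1.01 in GcKO, and 0 in all 3 AmcKO libraries. GcKO and AmcKO did not overlap, while WT, MUT and GcKO did. The 0 in AmcKO allows up to 0.452 FPKM if 3 fragments over the group are taken as the limit, so a level like the MUT mean of 0.354 FPKM would not have been detectable. GcKO lay 0.86 (SE 0.33) above AmcKO on the log2(FPKM + 1) scale with a limma adjusted p of 0.167, a size that depends on the pseudocount since AmcKO is listed at 0. The coding sequences of Gpr3 and Gpr12 were 65.7% identical with a longest shared run of 14 nt, far shorter than a read of 150 nt.

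Adcy3 and Adcy9 encode adenylyl cyclases, the enzymes that make cyclic AMP, and type 3 is the cyclase known for meiotic arrest in rodent oocytes. Adcy3 (chr12:4133103-4213525, plus strand) was listed at 0 in all 12 libraries. If 3 fragments over a group are taken as the limit, the 0 allows up to 0.379 FPKM in WT and between 0.167 and 0.215 FPKM in the other groups. Its locus in the table runs from 4133395 to 4240123 and takes in Cenpo, on the opposite strand at 8.53 to 22.9 FPKM, and Ptrhd1 at 12.5 to 23.4 FPKM. The sources used here do not state a strand setting, without which reads of overlapping genes cannot be told apart, and a 0 in such a locus can be a failed estimate.

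Adcy9 (chr16:4287529-4420498, minus strand) was detected in 11 of 12 libraries. The FPKM values were 0, 0.241 and 1.03 in WT, 0.855, 1.53 and 0.655 in MUT, 1.92, 1.14 and 0.407 in GcKO, and 0.947, 0.382 and 1.31 in AmcKO. Each group overlapped with WT through the library WT 6. The difference from WT was 0.54 (SE 0.37) in MUT, 0.60 (SE 0.37) in GcKO and 0.43 (SE 0.37) in AmcKO, and limma gave adjusted p-values of 0.331, 0.283 and 0.591.

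Pde3a (chr6:141249269-141507448, plus strand) encodes the phosphodiesterase that hydrolyses cyclic AMP in the oocyte. The FPKM values were 1.59, 0.448 and 0.385 in WT, 1.64, 1.51 and 0.408 in MUT, 0.813, 1.37 and 2.53 in GcKO, and 0, 0 and 0.408 in AmcKO. AmcKO was the low group, and its single value above 0 rested on 2 fragments. It touched the range of WT and of MUT but not that of GcKO, from which it differed by 1.14 (SE 0.38) on the log2(FPKM + 1) scale, GcKO being higher, at a limma adjusted p of 0.101. Against WT the differences were 0.28 in MUT, 0.52 in GcKO and −0.63 in AmcKO, with limma adjusted p-values of 0.638, 0.360 and 0.441. The locus of Pde3a in the table ended at 141499351, short of the annotated end, and took in 4205 of the 12302 nt of the transcript, so the rest of the 3′ end lay outside the locus that these values describe.

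Prkaca (chr8:83972993-83996443, plus strand) encodes Cα, the main catalytic subunit of PKA in most cells. The FPKM values were 3.94, 0.891 and 0.764 in WT, 5.45, 4.37 and 5.29 in MUT, 3.24, 5.45 and 4.03 in GcKO, and 2.52, 2.38 and 3.67 in AmcKO. The library WT 4 stood apart from the other WT libraries and lay within the range of GcKO and above every AmcKO library, and only MUT did not overlap with WT. Prkaca rose in MUT by 1.24 (SE 0.38) on the log2(FPKM + 1) scale, with group means of 5.04 ± 0.579 against 1.87 ± 1.80 FPKM (SD, n = 3 each) and a limma adjusted p of 0.0313. The difference was 1.02 (SE 0.38, adjusted p = 0.0713) in GcKO and 0.58 (SE 0.38, adjusted p = 0.476) in AmcKO by the same limma fit. Without the library WT 4, the differences were 1.72 for MUT and 1.5 for GcKO, and the second of these then passed at an adjusted p of 0.00626 in limma. Without any 1 of the other WT or MUT libraries the MUT call was lost, at limma adjusted p-values of 0.0969 without WT 5, 0.105 without WT 6, 0.0876 without MUT 1, 0.0638 without MUT 2 and 0.0898 without MUT 3.

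Prkacb (chr3:146729574-146812990, minus strand) encodes the second catalytic subunit, Cβ. It was listed at 0 in the 3 WT libraries, at 1.10, 1.18 and 0.818 FPKM in MUT, at 0.653, 1.22 and 1.27 FPKM in GcKO, and at 0.507, 1.43 and 0.819 FPKM in AmcKO. The WT libraries lay below the 9 others, none of which was at 0. In WT 1 fragment of Prkacb was worth 0.385 to 0.449 FPKM, and 3 fragments over the group would come to 0.409 FPKM, below the lowest value of any other group. In limma it was called higher in MUT (adjusted p = 0.0217) and in GcKO (adjusted p = 0.0214), and the difference from WT in AmcKO had an adjusted p of 0.168. No fold is given against a group listed at 0, since the fitted differences of 1.02, 1.02 and 0.91 become 3.49, 3.47 and 3.25 when the pseudocount is 0.1 in place of 1. The MUT call was lost without MUT 1 (limma adjusted p = 0.0645) or MUT 2 (0.0725), and the GcKO call without GcKO 2 (0.0715) or GcKO 3 (0.0590).

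The catalytic pair is the most alike in sequence among these genes, with 80.3% identity over 1056 nt of coding sequence and a longest shared run of 34 nt, against 62.5% to 65.7% for the other pairs compared. That run is far shorter than a read of 150 nt, and how the authors' counting treated any fragments that align to both was not tested. The ratio of Prkacb to Prkaca lay between 0.155 and 0.270 in MUT, 0.202 and 0.314 in GcKO, and 0.201 and 0.602 in AmcKO, with Prkaca the higher in each of these 9 libraries. The ratio was 0 in the 3 WT libraries, where Prkacb was listed at 0. An exact permutation test over the 4 groups gave p = 0.642 for the difference of the log2(FPKM + 1) values (n = 3 per group, 12 libraries), also after adjustment. For WT that difference only follows Prkaca. With a pseudocount of 0.1 the exact permutation test gave an adjusted p of 0.0448 (n = 3 per group, 12 libraries). The result for this ratio thus depended on the pseudocount.

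The regulatory subunits hold the catalytic ones inactive through a short inhibitor site that sits in the active cleft. In type I subunits such as RIα the site is a pseudosubstrate that cannot be phosphorylated, and in type II subunits such as RIIβ it carries a serine that the kinase phosphorylates. The coding sequence around the site is shown because it is the stretch by which the products of Prkar1a and Prkar2b differ in the way they meet the catalytic subunit. It was read 5′ to 3′ from the GENCODE M21 transcripts, and capitals mark codons 96 to 99 of 381 in Prkar1a and 109 to 112 of 416 in Prkar2b.
Prkar1a: cgacggCGCCGAGGTGCTatcagt
Prkar2b: ttcacaAGGCGTGCCTCGgtctgt
Over the whole coding sequence these genes were 62.5% identical with a longest shared run of 15 nt.

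Prkar1a (chr11:109649405-109669656, plus strand) was lowest in WT. The FPKM values were 5.62, 4.63 and 3.47 in WT, 8.0, 10.4 and 8.94 in MUT, 11.1, 7.64 and 7.18 in GcKO, and 7.5, 7.07 and 10.8 in AmcKO. The 3 WT libraries lay below the 9 others. Prkar1a rose in MUT by 0.87 (SE 0.26) on the log2(FPKM + 1) scale, with means of 9.12 ± 1.22 against 4.57 ± 1.08 FPKM and a limma adjusted p of 0.0291. It rose in GcKO by 0.79 (SE 0.26), to 8.65 ± 2.15 FPKM, with a limma adjusted p of 0.0465. The difference in AmcKO was 0.76 (SE 0.26), at 8.46 ± 2.04 FPKM, with a limma adjusted p of 0.197.

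The larger adjusted p in AmcKO stood beside a difference of nearly the same size and the same SE, in a comparison where few genes passed. AmcKO and GcKO differed in Prkar1a by 0.03 (95% CI −0.53 to 0.58, GcKO minus AmcKO, limma adjusted p = 0.993), so the data do not separate the oocyte deletion from the granulosa deletion for this gene. The call against WT rested on the libraries included. In MUT it held without WT 4 and was lost without WT 5, WT 6, MUT 1, MUT 2 or MUT 3, at limma adjusted p-values of 0.0540, 0.0915, 0.0510, 0.104 and 0.0751. In GcKO it was lost without WT 5, WT 6, GcKO 1 or GcKO 2, at 0.0783, 0.133, 0.182 and 0.0746.

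Prkar2b (chr12:31958476-32061296, minus strand) encodes RIIβ and had the highest mean of the 9 genes. The FPKM values were 8.59, 6.29 and 5.89 in WT, 5.35, 9.24 and 8.06 in MUT, 7.88, 6.59 and 9.68 in GcKO, and 15.5, 11.6 and 9.90 in AmcKO. AmcKO was the high group and did not overlap with any other. Its mean was 12.3 ± 2.86 FPKM against 6.92 ± 1.46 in WT, a difference of 0.74 (SE 0.26) with a limma adjusted p of 0.210. The difference from WT was 0.10 in MUT and 0.19 in GcKO, at limma adjusted p-values of 0.836 and 0.647. GcKO lay below AmcKO by −0.55 (SE 0.26, limma adjusted p = 0.281).

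**Figure D3:**
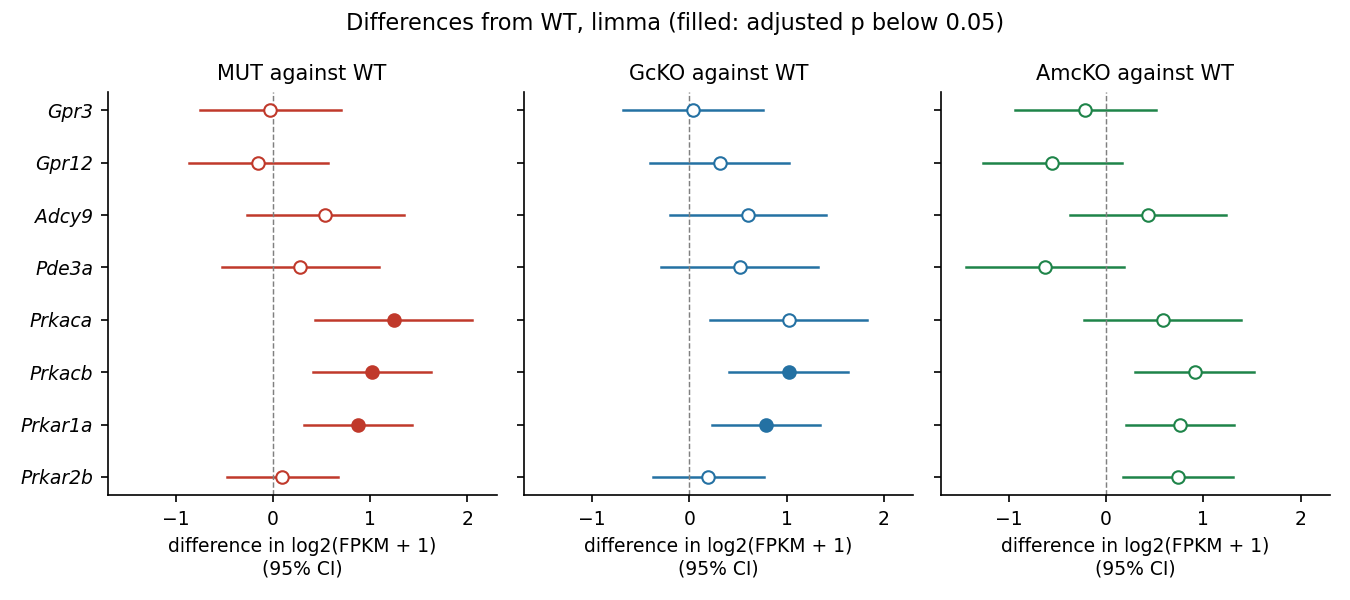
Difference from WT in log2(FPKM + 1) (horizontal axis) with its 95% CI for the 8 genes tested, in MUT, GcKO and AmcKO; a filled point has a limma adjusted p below 0.05. Filled points are Prkaca, Prkacb and Prkar1a in MUT and Prkacb and Prkar1a in GcKO, and AmcKO has none although the intervals of Prkacb, Prkar1a and Prkar2b lie above 0.

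The counts over the set read as follows against all genes. In MUT against WT, 3 of 8 passed, all higher, out of 11233 genes tested in all, and the median difference was 0.41 over the 8 genes and 0.12 over all genes. In GcKO against WT, 2 of 8 passed, both higher, with medians of 0.56 and 0.12. In AmcKO against WT, 0 of 8 passed beside 0.214% of all genes, with medians of 0.51 and 0.03, and 3 of the 8 (Prkacb, Prkar1a, Prkar2b) had an unadjusted limma p under 0.05 and did not overlap with WT. Over all genes tested, 15.6% had such a p and 17.8% did not overlap. With Prkacb in WT and Gpr12 in AmcKO set to the level that 3 fragments per group would give, the medians over the 8 genes were 0.40 in MUT, 0.52 in GcKO and 0.43 in AmcKO. These 3 comparisons share the WT libraries.

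The remaining comparisons were between groups other than WT. In GcKO against MUT, 0 of 8 genes passed in limma beside 0.205% of all genes, 0 had an unadjusted p under 0.05 beside 6.6% of all genes, and the differences ran from −0.22 for Prkaca to 0.46 for Gpr12. In GcKO against AmcKO, 0 of 8 passed beside 5.46% of all genes. There Gpr12 and Pde3a had an unadjusted limma p under 0.05, beside 19.3% of all genes, and 3 genes did not overlap, Gpr12 and Pde3a higher and Prkar2b lower in GcKO, beside 23.6% of all genes. Gpr12 reached 1 FPKM only in GcKO libraries and so passed the filter only through the group in which it is high.

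The calls depend on which scaling is applied to the libraries. With median-of-ratios scaling they were the same as for the deposited values, 3 genes in MUT and 2 in GcKO. Its factors were 0.969 to 0.987 over the 12 libraries, so the deposited values were already close to that scale. With the libraries scaled to the same FPKM sum, the median difference over all genes moved to 0.68 in MUT and 0.71 in GcKO. Relative to the median of all genes, Prkar1a in MUT went from 0.75 to 1.02 and Prkaca from 1.12 to 1.21, while Prkacb went from 0.90 to 0.54. In GcKO the same differences went from 0.67 to 0.94, from 0.90 to 0.98 and from 0.90 to 0.52. With this scaling Prkar2b passed in both, at 0.96 in MUT and 1.09 in GcKO before the median is taken off, and Prkaca (1.69, limma adjusted p = 0.00221) and Pde3a (0.98, limma adjusted p = 0.0396) also passed in GcKO. Over all genes, 4668 were then called higher and 249 lower in MUT, and 4802 and 240 in GcKO. As deposited these counts were 1063 and 1269 in MUT, and 978 and 1286 in GcKO. With quantile normalization the differences of Prkaca, Prkacb and Prkar1a were still above 0 in MUT and GcKO, and 0 of 8 genes passed in either. Over all genes, 766 were called higher and 715 lower in MUT with quantile normalization, and 701 and 663 in GcKO. Fewer contributing cells, less RNA per oocyte and a change in the other genes cannot be told apart in these values.

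Ratios within a library do not depend on its scale except through the pseudocount. In WT the ratio of Prkar1a to Prkar2b lay between 0.590 and 0.736. It was between 1.11 and 1.5 for MUT, between 0.742 and 1.41 for GcKO, and between 0.485 and 1.09 for AmcKO. RIIβ mRNA was thus the more abundant of the pair in all WT libraries and RIα mRNA in all MUT libraries, while GcKO and AmcKO held libraries of both kinds. An exact permutation test over the 369600 assignments of 12 libraries to 4 groups gave p = 0.0817, and 0.408 after Benjamini-Hochberg adjustment over the 5 ratios tested. The other ratios of the set, Gpr3 over Gpr12, Gpr3 over Pde3a and Adcy3 over Adcy9, had exact permutation p-values of 0.437, 0.370 and 0.401 (n = 3 per group), and the last of them only follows Adcy9.

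**Figure D4:**
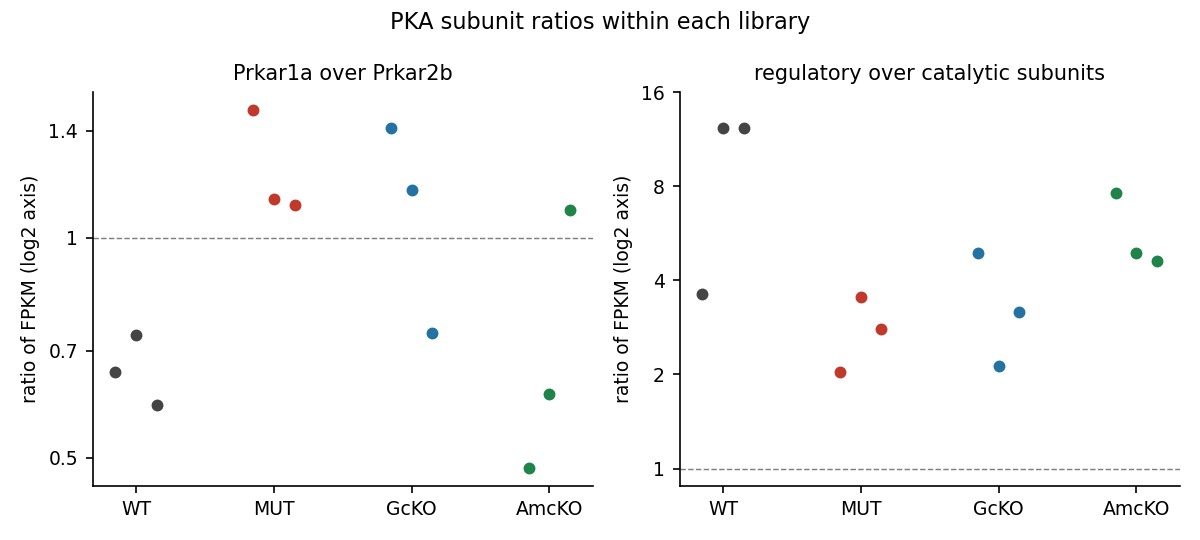
Ratio of FPKM within each library (vertical axis, log2 scale) of Prkar1a to Prkar2b and of the summed regulatory to the summed catalytic PKA genes; each point is 1 library of the group on the horizontal axis and the dashed line marks a ratio of 1. The WT points of the first ratio lie between 0.590 and 0.736 and the MUT points between 1.11 and 1.5.

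Summed over both genes of each kind, regulatory mRNA exceeded catalytic mRNA in 12 of 12 libraries. The ratio was 3.61, 12.2 and 12.3 in WT, 2.04, 3.54 and 2.79 in MUT, 4.89, 2.13 and 3.18 in GcKO, and 7.59, 4.88 and 4.61 in AmcKO. WT held the highest ratios, in the libraries WT 5 and WT 6, where the catalytic sum rested on a single Prkaca fragment each. MUT lay below WT in every library, and its highest ratio, 3.54, was close to the lowest in WT. AmcKO lay above MUT in every library. These sums were formed after the values had been seen and were not tested.

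By Pearson's r of log2(FPKM + 1) over the 12 libraries, the genes most like Prkar1a were Nup153 (r = 0.970) and Ammecr1l (0.963), and those most like Prkar2b were Cnnm2 (0.790) and Uvssa (0.778), among 4759 genes compared. The 12 points share their groups and the scale of each library, and the values are a description.

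RefSeq promoter windows of 300 nt on GRCm38.p6 were matched for 8 of the 9 genes by symbol, in 19 windows. The full cyclic AMP response element TGACGTCA was present in 2 of these, both of Prkar1a, and in 1.79% of 32851 windows of the same kind. The shorter TGACG, read on either strand and contained in the full element, was in 7 of 19, in windows of Gpr3, Adcy9, Prkaca, Prkacb and Prkar1a, and in 20.8% of all windows. A match is a description of the letters.

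Among 11 genes upstream, the other receptor and G protein genes and Rgs2, 10 were tested, 2 fell in MUT and in GcKO, and 0 rose. The share called was 20% in each, beside 20.8% and 20.2% of all genes tested. Rgs2, which encodes a regulator of G protein signalling, had 2367 ± 84.0 FPKM in WT, 679 ± 23.1 in MUT, 719.7 ± 150.2 in GcKO and 1436 ± 377 in AmcKO. It fell, with differences of −1.80 in MUT and −1.74 in GcKO on the log2(FPKM + 1) scale (limma adjusted p = 1.1e-04 and 1.0e-04), and the difference of GcKO from AmcKO was −0.99 (limma adjusted p = 0.00854). With equal FPKM sums the fall in MUT and GcKO was still called, at −0.80 and −0.70, and the difference from AmcKO was −0.25 and not called. Gng12, a G protein γ subunit, fell, with −1.15 in MUT and −0.89 in GcKO (limma adjusted p = 3.3e-04 and 0.00183), and it was lower in GcKO than in AmcKO, at −0.59 (limma adjusted p = 0.0496). With equal FPKM sums Gng12 was at −0.16 in MUT and turned to 0.14 against both WT and AmcKO in GcKO, none of them called. Gnb1, a β subunit, was lower in GcKO than in AmcKO, at −1.30 (limma adjusted p = 0.0301), and at −0.57 and not called with equal FPKM sums.

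The 8 other cyclase genes and Cap1, which encodes a cyclase-associated protein, all stayed under the filter. Adcy10, the soluble cyclase, had the highest mean, 0.336 FPKM, and the summed level of the list did not exceed 2.2 FPKM in any library. Together with Adcy3 at 0, Adcy9 was therefore the only adenylyl cyclase gene that passed the filter here.

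Of 14 other phosphodiesterase genes, 7 were tested and 1 passed in MUT and in GcKO, a share of 14.3% beside 20.8% and 20.2% of all genes. The gene was Pde3b, which encodes the second cGMP-inhibited enzyme. Its FPKM values were 3.11, 3.87 and 2.42 in WT, 6.30, 6.46 and 7.99 in MUT, 11.2, 5.96 and 7.14 in GcKO, and 3.96, 5.60 and 4.80 in AmcKO. It rose by 0.95 (SE 0.28, limma adjusted p = 0.0262) in MUT and 1.11 (SE 0.28, adjusted p = 0.0115) in GcKO. Pde3b exceeded Pde3a in 12 of 12 libraries, on the FPKM scale and with the shortened Pde3a locus described above.

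Of 13 other PKA genes, 11 were tested, and Akap1 and Akap10, which encode anchoring proteins, rose in GcKO, 18.2% beside 20.2% of all genes. Akap1 had 4.19 ± 2.2 FPKM in WT and 11.6 ± 3.11 in GcKO, a difference of 1.35 (limma adjusted p = 0.0124), and Akap10 had 2.75 ± 1.45 and 5.70 ± 0.208, a difference of 0.91 (adjusted p = 0.0391). In MUT, where 0 passed beside 20.8% of all genes, their differences were 0.96 and 0.75 (limma adjusted p = 0.0601 and 0.0813), and GcKO and MUT differed by 0.39 and 0.16 (adjusted p = 0.935 and 0.983). With equal FPKM sums both genes passed in MUT as well. Pkig, which encodes a PKA inhibitor, had the highest mean of this list, 88.4 FPKM, far above the catalytic genes, and differed from WT by −0.01 in MUT and −0.37 in GcKO (limma adjusted p = 0.990 and 0.131). With equal FPKM sums both of these turned positive, at 0.97 and 0.66.

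Of 8 genes for cyclic GMP and its passage through gap junctions, 3 were tested, and 2 of them rose in MUT and 0 in GcKO, beside 20.8% and 20.2% of all genes called. Gja4, which encodes the connexin 37 of the oocyte surface, had 94.2 ± 21.2 FPKM in WT, 205.7 ± 39.2 in MUT, 165.6 ± 46 in GcKO and 120.0 ± 38.1 in AmcKO, and rose in MUT by 1.13 (limma adjusted p = 0.00929). In GcKO its difference was 0.80 (limma adjusted p = 0.0504), which passed with equal FPKM sums and with quantile normalization. Gja1, the connexin 43 of granulosa cells, was listed at 0 in the WT libraries, at 3.30, 2.35 and 4.26 FPKM in MUT, and at 0.353 to 1.69 FPKM in GcKO (limma adjusted p = 6.5e-04 for MUT). Gja1 reached 1 FPKM only in MUT and GcKO libraries and so passed the filter only through groups in which it is high. Of the 6 granulosa markers tested, 2 rose in MUT and 0 fell, beside 20.8% of all genes called. The median difference was 0.10, beside 0.12 over all genes. The risers were Inha and Hsd17b1 (limma adjusted p = 0.00260 and 0.0118), from 0 in the WT libraries to 1.13 to 5.44 and 0.642 to 3.09 FPKM. Inha reached 1 FPKM only in MUT and GcKO libraries and Hsd17b1 only in MUT libraries, so both passed the filter only through groups in which they are high. Cyp19a1, the aromatase gene and the most abundant marker, had 17.4 ± 2.53 FPKM in WT and 10.6 ± 2.45 in MUT (−0.68, limma adjusted p = 0.185), and Fshr and Kitl were at −0.04 and −0.02. In GcKO 0 markers passed, beside 20.2% of all genes, with Inha at 0.505 to 1.08 FPKM in every library. The part of granulosa RNA in the calls of Prkaca, Prkacb and Prkar1a in MUT and GcKO was not tested.

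Of 19 genes of the CDK1 switch that PKA acts on, all were tested. In MUT 4 rose (Wee2, Cdc25a, Plk1, Akt1) and 2 fell (Ccnb1, Arpp19), and in GcKO 2 rose (Cdc25a, Akt1) and the same 2 fell. These were 31.6% and 21.1% of the list, beside 20.8% and 20.2% of all genes tested. Cdc25a, a phosphatase that activates CDK1, went from 3.07 ± 2.29 FPKM in WT to 8.92 ± 0.347 in MUT and 9.62 ± 2.88 in GcKO, by 1.5 and 1.56 (limma adjusted p = 0.0218 and 0.0176). Arpp19, whose product inhibits the phosphatase that opposes CDK1, went from 210.2 ± 14.2 to 99.8 ± 10.5 and 96.1 ± 32.8 FPKM, differences of −1.07 and −1.17 (limma adjusted p = 0.00260 and 0.00141), and was also lower in GcKO than in AmcKO, at −0.89 (adjusted p = 0.0222). With equal FPKM sums these 3 differences of Arpp19 shrank to −0.079, −0.14 and −0.15, none of them called. Ccnb1, the cyclin B1 partner of CDK1, fell, with −0.77 in MUT and −0.83 in GcKO, a direction that turned to 0.22 and 0.21 with equal FPKM sums and to 0.14 and 0.10 with quantile normalization. Mos, the kinase of the second meiotic arrest, had the highest mean of the list, 1134 FPKM, and differed from WT by −0.10 in MUT and −0.35 in GcKO (limma adjusted p = 0.784 and 0.275), which became 0.90 and 0.69 with equal FPKM sums. In AmcKO against WT and in GcKO against MUT, 0 genes of any of these lists passed in limma, beside 0.214% and 0.205% of all genes.

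**Figure D5:**
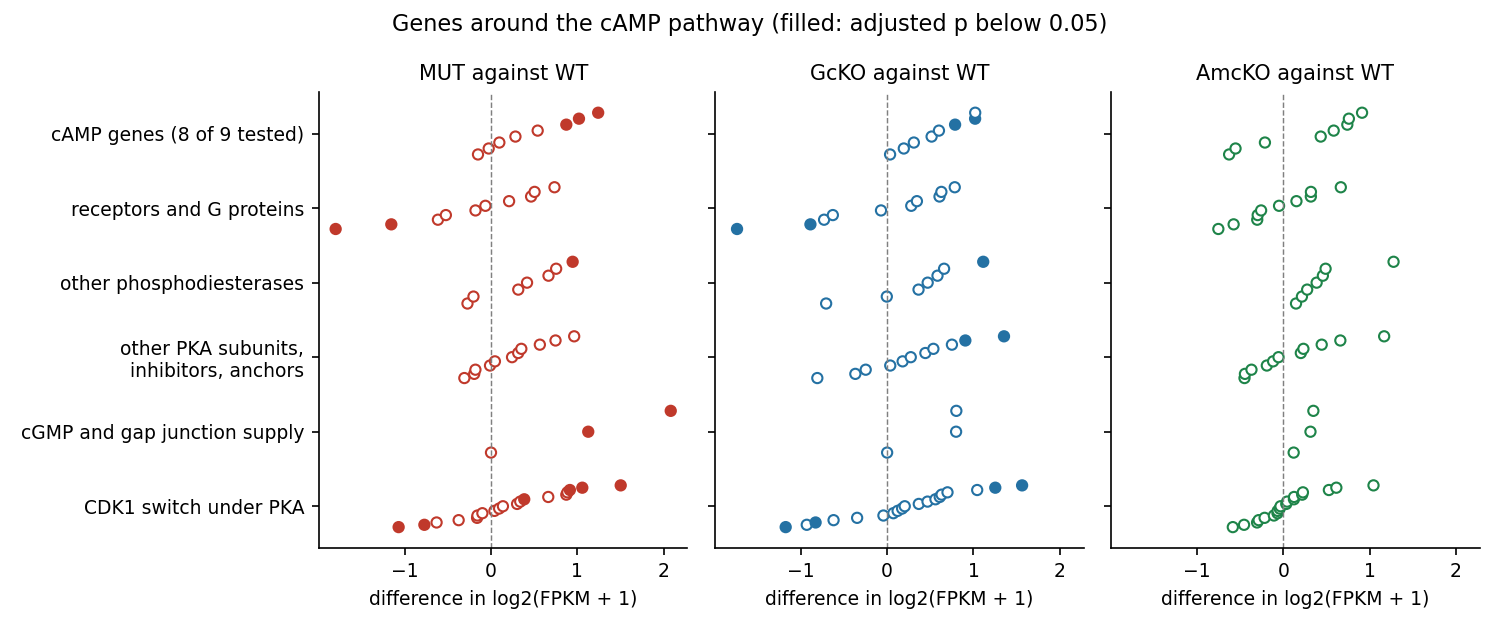
Difference from WT in log2(FPKM + 1) (horizontal axis) of every gene tested in the cAMP set and in 5 lists of genes around it; each point is 1 gene, filled where the limma adjusted p was below 0.05, in MUT, GcKO and AmcKO. Filled points to the left are Rgs2 and Gng12 among the G protein genes and Ccnb1 and Arpp19 in the CDK1 switch, and AmcKO has no filled point.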

How the data were processed

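RNA of 20 oocytes per library was sequenced in 12 libraries, 3 per group. The authors deposited 1 table of FPKM values per gene; per the labels it was made with TopHat2 2.0.13 and Cufflinks 2.2.1 on mm10, and Cuffnorm and Cuffdiff are also named without a version. The gene annotation and the strand setting are not given in the sources used here. Columns with the authors' fold changes, p-values and q-values for 6 comparisons were not used. Read depth was not given, so fragments were estimated from the steps of low FPKM values in 1670 genes with 1 transcript of at least 2000 nt.

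Groups were taken from the labels. Genes with at least 1 FPKM in at least 1 library (11233) were fitted as log2(FPKM + 1) in limma 3.58.1 (R 4.3.3) with an abundance trend, all 12 libraries in 1 fit with 8 residual degrees of freedom. Benjamini-Hochberg adjustment ran over all genes tested, with calls at an adjusted p below 0.05, two-sided, for 5 comparisons. The pseudocount understates changes of low genes. On simulated data for MUT against WT (10416 genes), the fit recovered 178 of 200 changed genes, 104 of 104 at 4-fold and 74 of 96 at 2-fold. The changed genes were drawn only from genes more abundant than Gpr3, Gpr12, Adcy9, Pde3a, Prkaca and Prkacb, so this recovery does not describe those members. The 5 ratios were tested by exact permutation with an F statistic, computed with numpy 2.4.6. Coordinates are from GENCODE M21 (GRCm38), coding identity is from its transcripts, and promoter windows are from RefSeq (GRCm38.p6).

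The members and lists were chosen with earlier results of these data known, and 1 gene of the CDK1 list is not reported here. All members are described; from the other lists the 2 genes with the highest mean and those with the largest called rise and fall per comparison are eligible to be named, and other called genes are named where a count was small. Alternatives were the pseudocount, the filter, 3 scalings, the variance trend, a fold minimum, fitting only the groups compared, leaving out each library, and a replicate block.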

Additional observations from a re-analysis of the deposited data

How the results depend on the processing

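The number of cAMP genes called in limma was 3 in MUT against WT and 2 in GcKO against WT, and it moved with several choices. In MUT against WT it was 2 without a filter (Prkaca lost, adjusted p = 0.0521), 4 with equal FPKM sums, 2 with a fold minimum of 2, 1 among genes with a mean of at least 5 FPKM, 0 with quantile normalization, 1 when only these groups were fitted, and 0 to 3 when 1 library was left out, with 0 without MUT 1 or MUT 2. In GcKO against WT it was 1 without a filter, 1 among genes with a mean of at least 5 FPKM, 0 with quantile normalization, 5 with equal FPKM sums, 0 when only these groups were fitted, 1 with a fold minimum of 2, and 0 to 3 when 1 library was left out, with 0 without GcKO 2 and 3 without WT 4. With median-of-ratios scaling both numbers were unchanged. The calls over all genes moved as well with equal FPKM sums and with quantile normalization, as given above. In GcKO against AmcKO the number of cAMP genes called was 0 except with equal FPKM sums, where 2 genes (Gpr12, Pde3a) passed. That scaling called 2474 genes higher and 127 lower over all genes. The cause of these changes was not tested, beyond the fewer libraries of the smaller fits. In AmcKO against WT and GcKO against MUT it was 0 under every alternative run.

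Some small differences changed sign. With quantile normalization Pde3a in MUT against WT became −0.017, Prkar2b in MUT against WT −0.067 and Gpr3 in GcKO against WT −0.20. With equal FPKM sums Gpr3 in MUT against WT became 0.72, Gpr12 in MUT against WT 0.10, Gpr3 in AmcKO against WT 0.010 and Prkar2b in GcKO against AmcKO 0.12. With 1 library left out, MUT against WT ran from −0.34 to 0.17 for Gpr3, −0.43 to 0.050 for Gpr12 and −0.047 to 0.30 for Prkar2b, and Gpr3 in GcKO against WT from −0.28 to 0.30. None of these was called in the fit of the deposited values. The exact permutation test of Prkacb over Prkaca had an adjusted p of 0.642 and passed at 0.0448 with a pseudocount of 0.1; the other ratios passed under no alternative run, and the adjusted p of Prkar1a over Prkar2b was 0.0643 to 0.693 with 1 library left out.

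WT and AmcKO libraries share a set of label numbers, and MUT and GcKO libraries share a different set. What the numbers stand for is not stated. MUT against WT, GcKO against WT and GcKO against AmcKO cross these sets. In these comparisons a difference between the number sets cannot be told apart from genotype. Same-numbered libraries exist for WT with AmcKO and for MUT with GcKO. Their deviations from the group means correlated at −0.0413 to 0.0405, so the numbers were not taken as pairs; with a replicate block 0 cAMP genes were called in AmcKO against WT and 0 in GcKO against MUT. Depth limits the set most in WT, where Prkaca rested on 1 fragment in 2 libraries.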
